A study of Mus musculus with 10 samples.

Results

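Translation initiation and elongation factors were taken as the protein-coding mouse genes whose symbols open with Eif1 to Eif6 or with Eef1 or Eef2. A total of 74 symbols matched that opening. Kinases, binding proteins, methyltransferases and other genes named after a factor, pseudogenes and the Y-linked Eif2s3y made up the 20 that were left out, and 54 genes of the 43629 in the files remained. Eef2k, the kinase that inhibits eEF2, passed the symbol rule and was kept. By complex, the members were 8 elongation genes, 5 of the eIF1 group, 10 of the eIF2 group, 14 eIF3 subunits, 12 of the eIF4 group and 5 of eIF5, eIF5A, eIF5B and eIF6.

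The study asked what IMP2, the mRNA-binding protein encoded by Igf2bp2, does in adult muscle. Skeletal muscle of male C57BL/6 mice, aged 6 weeks and given a high-fat diet for 2 weeks, gave 2 kinds of library, total RNA and the RNA pulled down (IP) by a home-made antibody to IMP2. The groups were KO IP (2 libraries), WT IP (2 libraries), KO total RNA (3 libraries) and WT total RNA (3 libraries). The sample labels call the KO animals IMP2 null, whereas the series description speaks of a knockout restricted to muscle, and the driver of the deletion is not given in the sources used here. KO IP serves as the control for RNA that the antibody step recovers without IMP2.

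Igf2bp2 was still counted in libraries labelled KO, with 9 and 25 reads in KO IP against 28 and 4 in WT IP, and with 21, 19 and 21 in total RNA of KO against 35, 37 and 48 in total RNA of WT. Scaled to depth these levels overlapped between genotypes, and the exons removed by the deletion are not stated in the labels, and KO and WT below follow the labels. Gene counts per library came to 917462 and 4037480 in KO IP, 2159115 to 2547124 in WT IP, 9691580 to 10739792 in KO total RNA and 12299030 to 14809788 in WT total RNA. Pancreatic islet markers summed to 382 and 152 CPM (counts scaled to library depth) in KO IP, 47.9 and 356 CPM in WT IP, and 2446 CPM in KO total RNA library 1, where the 5 remaining libraries of total RNA had 2.00 to 7.28 CPM. Adipocyte markers summed to 1428 CPM in 1 WT total RNA library. Fast-fibre markers, which define the tissue, summed to 76338 to 125112 CPM over the IP libraries and 118210 to 288206 CPM over total RNA. Whether each library stands for 1 animal is not stated, and the p-values below reflect the variation among these libraries, part of which may be technical.

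Protein synthesis begins when eIF2 brings the initiator tRNA to the small ribosomal subunit, eIF1 and eIF1A hold that subunit in a scanning state, eIF3 bridges it to the mRNA, and the eIF4 proteins bind the cap and unwind the leader. eIF5 and eIF5B then allow the large subunit to join, eEF1A delivers each aminoacyl-tRNA and eEF2 moves the ribosome along. Skeletal muscle fibres are known for replacing eEF1A1 after birth by eEF1A2, which is also the form of heart and neurons. Several of these mRNAs, among them those of the elongation factors, carry a terminal oligopyrimidine tract at their 5′ end and are translated under control of mTOR and LARP1. These TOP mRNAs are represented here by 9 members, namely Eef1a1, Eef1b2, Eef1d, Eef1g, Eef2, Eif3e, Eif3f, Eif3h and Eif4b.

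RefSeq promoter entries (build GRCm38.p6) existed for 42 of the 54 members. The 5 TOP members with an entry are shown with Eef1a2, because the TOP members lay on 1 side of zero in the genotype comparisons described below. Each sequence runs from 40 bases before the listed transcription start to 40 bases from it, on the sense strand, with the longest unbroken run of C or T that reaches into the 20 bases on either side of the start in capitals.
Eef1a1, chr9:78481685-78481764, minus strand: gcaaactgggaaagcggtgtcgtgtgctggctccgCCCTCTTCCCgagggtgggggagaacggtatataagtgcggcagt
Eef1a2, chr2:181156976-181157055, minus strand: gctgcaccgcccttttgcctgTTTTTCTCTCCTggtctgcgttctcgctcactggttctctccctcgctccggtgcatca
Eef1b2, chr1:63176791-63176870, plus strand: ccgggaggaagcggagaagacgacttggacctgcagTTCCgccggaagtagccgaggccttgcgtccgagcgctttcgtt
Eef2, chr10:81176591-81176670, plus strand: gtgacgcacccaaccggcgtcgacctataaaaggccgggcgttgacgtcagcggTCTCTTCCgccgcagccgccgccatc
Eif3f, chr7:108934375-108934454, plus strand: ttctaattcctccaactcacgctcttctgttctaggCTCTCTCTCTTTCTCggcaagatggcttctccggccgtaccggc
Eif4b, chr15:102073733-102073812, plus strand: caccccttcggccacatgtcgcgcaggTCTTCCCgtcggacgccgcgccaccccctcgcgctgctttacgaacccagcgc
Runs of at least 8 pyrimidines on that strand were present in 3 of these 5 TOP members (60%) and in 7 of the other 37 members (18.9%), against 20.2% of 17491 protein-coding genes with an entry. Eif3f had a run of 15 and Eef1a1 of 10, which began at offsets -4 and -5 from the listed start and crossed it. Runs that crossed the start were not particular to the TOP list. Among the other members, Eif2b5 had one of 21 from offset -17, Eif2s3x one of 16 from offset -5 and Eif3l one of 10 from offset -7. The Eef2 run of 8 began at offset 14, after the start. Eef1a2, which is not in the TOP list, had a run of 12. It began at offset -19 and ended before the listed start, so it lies outside the transcript as listed. A run is a description of these letters and not a mapped site, and the listed starts were not checked against the libraries.

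Muscle expressed nearly the whole set. Of the 54 members, 49 had at least 10 counts in every KO IP library, 51 in every WT IP library, and 52 in every library of KO total RNA and of WT total RNA. Eif4e1b, a germ-cell paralogue of the cap-binding protein, had 0 to 2 counts in every library. Eif3j2, a copy of Eif3j1 with 91.8% of its 50-base windows found in other genes, had 0 and 0 counts in KO IP, 0 and 1 in WT IP, 10, 11 and 7 in KO total RNA and 14, 14 and 3 in WT total RNA, so it is given by counts alone. Eif5a2, the paralogue of Eif5a, was counted 3 and 8 times in KO IP, 5 and 3 in WT IP, 10 to 27 in KO total RNA and 21 to 31 in WT total RNA.

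Levels compared between genes are given as CPM per kilobase of annotated exon. Eef1a2 led the set with 845 CPM per kilobase in KO total RNA and 590 in WT total RNA, where it was the 50th gene of all. Eef2, the translocase, followed with 388 in KO and 316 in WT total RNA. Eif4g1, the scaffold that joins cap-binding protein, helicase and eIF3, had 130 in KO and 115 in WT total RNA, and Eif5a, which relieves stalled ribosomes, 136 in KO and 99.8 in WT. The cap-binding subunit Eif4e, by contrast, stood at 7.41 in KO and 8.36 in WT total RNA, and the eIF2 subunit gene Eif2s3x at 1.12 in KO and 1.17 in WT. Together Eef1a2, Eef2, Eif4g1 and Eif4g2 took 49.97% to 53.8% of all member counts in KO total RNA and 44.2% to 51.3% in WT total RNA, but 29.7% to 32.4% in KO IP and 33.6% to 36.0% in WT IP.

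**Figure D1:**
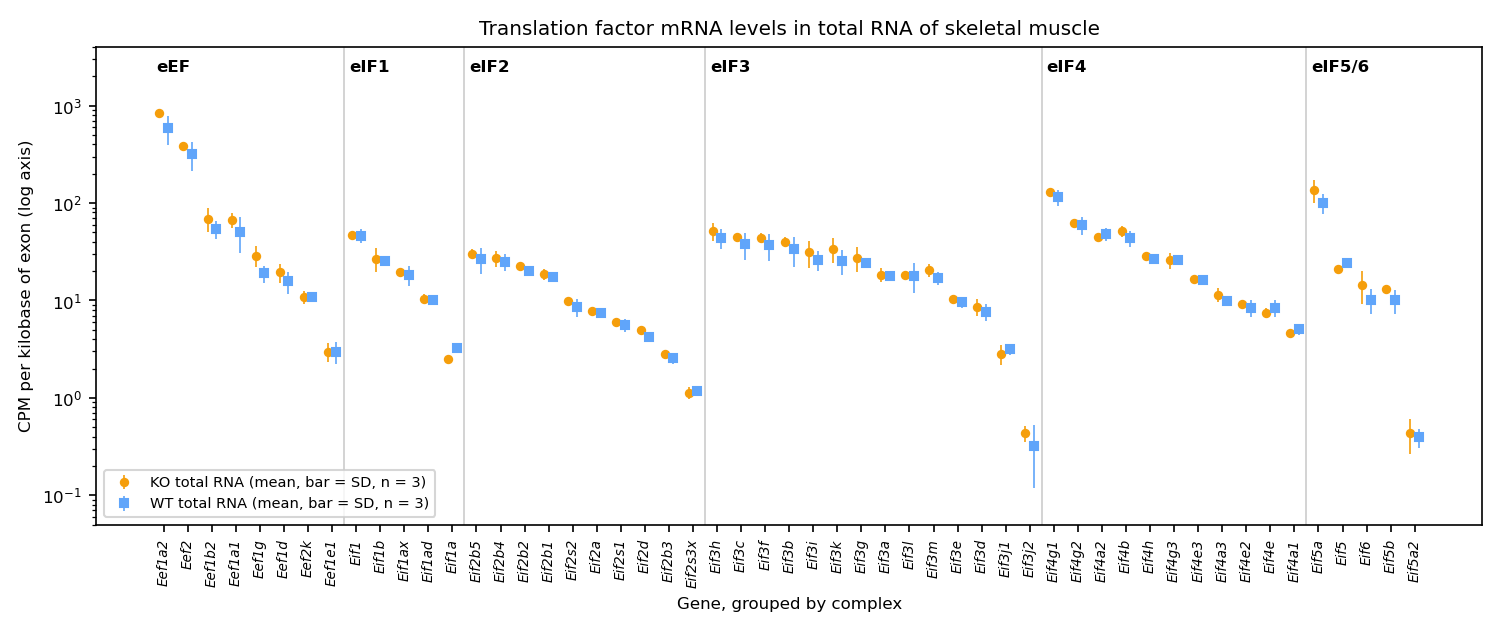
Mean level of each member in total RNA (vertical log axis, CPM per kilobase of exon, bar = SD, n = 3 libraries), KO left of WT for each gene and genes grouped by complex. Eef1a2 and Eef2 stand above every other member, Eif5a2 and Eif3j2 lie below 1 CPM per kilobase, and Eif4e1b, with 0 to 2 counts in each library, is not drawn.

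Subunits of 1 complex were not at 1 level. The 5 eIF2B subunit genes, whose protein product recharges eIF2, spanned 2.81 (Eif2b3) to 30.3 (Eif2b5) CPM per kilobase in KO total RNA and 2.55 to 26.6 in WT total RNA. Eif3h was the highest eIF3 subunit gene with 51.8 in KO and 44.2 in WT total RNA, whereas Eif3e stood at 10.4 in KO and 9.61 in WT. For the helicase eIF4A, the Eif4a2 form was at 44.7 in KO and 48.0 in WT total RNA, and Eif4a1 at 4.65 in KO and 5.06 in WT. Eif4a1 shared 65.3% of its 50-base windows with 8 other genes and Eif4a2 12.7% with 3, and reads mapping to several places, 36.4% to 43.3% of all entries in IP and 26.1% to 36.9% in total RNA, are kept apart in the deposited counts. Levels of the 8 members with over 30% shared windows, Eif4a1 among them, are therefore uncertain. Exons of 13 members overlap a gene on the opposite strand and those of 5 overlap a snoRNA gene, and strand was not stated for the counting.

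In the eEF1A pair, Eef1a2 was the main form in all 10 libraries. Per kilobase of exon it made up 86.4% and 89.6% of the pair in KO IP, 87.0% and 90.02% in WT IP, 93.3%, 93.2% and 91.5% in KO total RNA, and 91.5%, 92.1% and 93.0% in WT total RNA. The genotypes overlapped in both kinds of library, and IP libraries were below total RNA of their genotype without overlap. The mean share was 92.7% ± 0.984 in KO total RNA and 92.2% ± 0.770 in WT total RNA (SD, n = 3 each), a difference of 0.46 percentage points with p = 0.5 in a two-sided exact permutation test, which cannot go below 0.1 here. IP minus total RNA came to -4.67 points in KO and -3.68 points in WT, each at the exact permutation p of 0.2 that is the smallest this two-sided test allows with 2 against 3 libraries. Eef1a1 shared 60.6% of its windows with 21 other genes and Eef1a2 none. Dividing each count by unshared windows, a scaling chosen after seeing the data, gave Eef1a2 shares of 64.2% and 70.8% in KO IP, 65.5% and 71.8% in WT IP, and 75.3% to 79.7% over the 6 total RNA libraries.

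**Figure D2:**
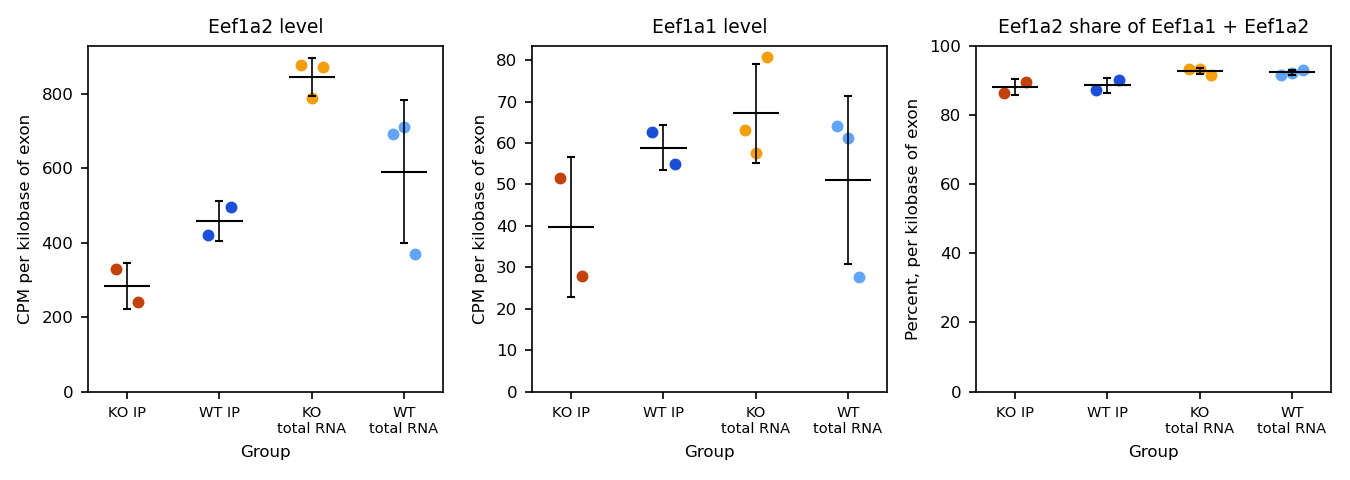
Level of Eef1a2 and Eef1a1 (CPM per kilobase of exon) and the Eef1a2 percentage of the pair in each library, by group, with line and bar for mean and SD (n = 2 for IP, n = 3 for total RNA). Eef1a2 makes up 86.4% to 93.3% of the pair in every library, with IP libraries below the total RNA libraries of their genotype.

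Total RNA from KO and WT muscle was compared first, which asks whether loss of IMP2 changed factor mRNA levels. No member passed the test. With edgeR's quasi-likelihood test and Benjamini-Hochberg adjustment at 0.05, 0 of 53 members tested and 0% of 13169 genes were called, and DESeq2 called 5 genes and 0 members. At an unadjusted p under 0.05, 569 genes (4.32%) were counted, among them 2 members (Eef1g and Eif1a). The log2 differences, KO minus WT, nevertheless lay mostly above zero. They were positive for 44 members and negative for 9, against 48% positive over all genes, and their median was 0.15 with all genes at -0.01.

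That count rests on the scaling, and the size of the members' difference from all genes rests on single libraries. Scaled by library size alone, 19 members were positive and 34 negative, since the median of all genes then moved to -0.23 while the members stayed 0.17 above it. Without WT library 3 the members' median was 0.04 above that of all genes, and without KO library 3 it was 0.095 above. In each of these refits 38 of 53 members were still positive. WT library 3 had the lowest member share of counts in total RNA, 0.676%, against 0.737% to 0.788% in KO and 0.762% and 0.813% in the other WT libraries.

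The elongation genes had a median log2 difference of 0.33, with 7 of 8 positive. Eef1a2 had 1828, 1640 and 1815 CPM in KO total RNA and 1439, 1482 and 769 CPM in WT total RNA. All 3 KO libraries were above all WT libraries, and the WT values were spread by 1 low library. The log2 difference was 0.51 ± 0.25 (SE), adjusted p = 0.897 by edgeR. Fast-fibre markers, summed over 13 genes, did not overlap either, with 221531 to 288206 CPM in KO and 118210 to 202211 CPM in WT total RNA, and their part in the Eef1a2 values was not tested. In bulk tissue, more fibres of a type and more RNA per fibre cannot be told apart.

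Eef1g, a structural subunit of the eEF1B exchange complex, had 63.9, 65.9 and 95.9 CPM in KO and 54.1, 55.8 and 38.0 CPM in WT total RNA. Every KO library was above every WT library, at a log2 difference of 0.61 ± 0.21 (SE; unadjusted p = 0.020, adjusted p = 0.897 by edgeR), though 64.3% of its windows are shared with 5 other genes. Its partners in the same complex were at 147, 148 and 230 CPM in KO against 152, 153 and 104 CPM in WT (Eef1b2), and at 112, 108 and 158 CPM in KO against 107, 125 and 73.1 CPM in WT (Eef1d). Both overlapped between genotypes, with KO library 3 highest and WT library 3 lowest. Eef2 overlapped too, at 1385, 1176 and 1314 CPM in KO and 1321, 1168 and 667 CPM in WT. Eef1a1 had 158, 144 and 201 CPM in KO and 160, 152 and 68.9 CPM in WT, again set apart by the low WT library 3. Eef2k had 93.9, 68.4 and 79.7 CPM in KO and 82.1, 76.1 and 82.1 CPM in WT, with a log2 difference of 0.00 ± 0.16 (SE). Eef1e1, which encodes a scaffold protein of the multi-synthetase complex, had 9.49, 7.61 and 11.9 CPM in KO and 12.4, 8.80 and 7.89 CPM in WT, a difference of -0.01 ± 0.24 (SE).

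Among initiation genes, Eif1a was the lowest. This start-codon factor had 10.1, 10.6 and 10.3 CPM in KO and 13.7, 13.0 and 13.7 CPM in WT total RNA. The groups did not overlap and both were tight, and the log2 difference was -0.39 ± 0.16 (SE; unadjusted p = 0.035, adjusted p = 0.897 by edgeR). Its X-linked paralogue Eif1ax had a difference of 0.09 ± 0.18, and Eif1, which acts beside eIF1A, of 0.02 ± 0.16. Group medians of the log2 difference were 0.03 for the eIF1 group, 0.12 for the eIF2 group, 0.23 for eIF3, 0.05 for the eIF4 group and 0.39 for eIF5, eIF5A, eIF5B and eIF6. In the last group, Eif6, which keeps the large subunit from joining early, had a difference of 0.50 ± 0.29, Eif5a of 0.45 ± 0.24 and Eif5b of 0.39 ± 0.21, while Eif5, the GTPase activator of eIF2, had -0.22 ± 0.15. Eif4a1, Eif4e and Eif3j1 averaged 20.1, 44.5 and 16.6 CPM in KO and 21.9, 50.2 and 18.5 CPM in WT total RNA. They were lower in KO on average, where 44 members had a positive difference. Over all members, KO and WT did not overlap for 4 that were higher in KO (Eef1a2, Eef1g, Eif2d and Eif5b), beside 5.06% of all genes. The same held for 1 that was lower (Eif1a), beside 4.56%. The 9 TOP members were all positive, with a median of 0.29, against 0.11 for the other 44.

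**Figure D3:**
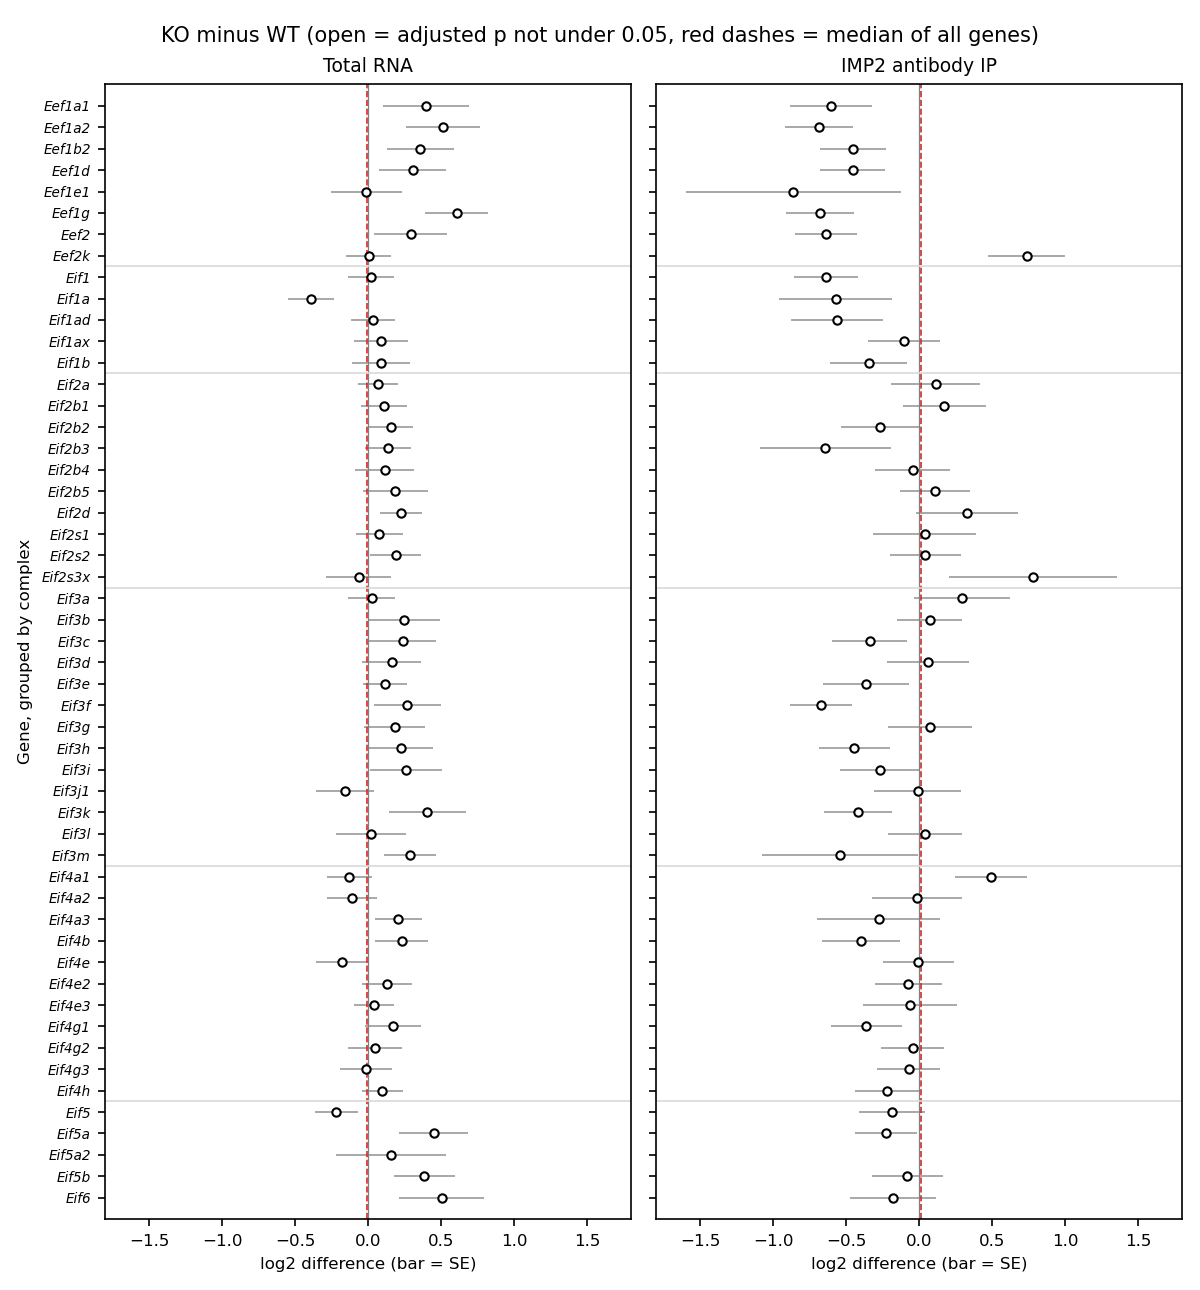
Log2 difference KO minus WT of each member (dot, bar = SE) in total RNA (left panel, n = 3 each) and in IP (right panel, n = 2 each), genes grouped by complex from elongation at the top. All dots are open, since no member passed an adjusted p of 0.05, and the elongation genes lie mostly right of zero in total RNA and left of zero in IP. Eif3j2 and Eif4e1b are not drawn.

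IP libraries of KO and WT muscle were compared next. RNA recovered through IMP2 would be lower in KO IP, which holds the background of the antibody. Again 0 members passed: edgeR's quasi-likelihood test called 0 of 51 members and 0% of 10730 genes, while DESeq2 called 45 genes and 0 members. At an unadjusted p under 0.05 there were 1128 genes (10.5%). Higher in KO IP at that level was 1 member, beside 5.68% of all genes, and 6 were lower, beside 4.83%. The members' differences leaned below zero, with 14 positive and 37 negative where 49.1% of all genes were negative, and a median of -0.19 against 0.01 for all genes. Scaled by library size alone the split was 24 positive and 27 negative, with all genes at 0.16 and the members 0.20 below them. The members took 0.654% and 0.687% of counts in KO IP and 0.750% and 0.791% in WT IP, without overlap. Without KO IP library 2 the members' median was -0.062 relative to that of all genes.

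Elongation genes were the lowest group, with 7 of 8 negative at a median of -0.62. Eef1a2 had 684 and 500 CPM in KO IP and 877 and 1034 CPM in WT IP. Both KO IP libraries were below both WT IP libraries, at -0.69 ± 0.23 (SE; unadjusted p = 0.0099, adjusted p = 0.298 by edgeR). Eef2 had 594 and 551 CPM in KO IP and 903 and 888 CPM in WT IP, at -0.64 ± 0.21 (adjusted p = 0.294 by edgeR), and its groups were narrow and apart. Eef1g had 70.1 and 69.3 CPM in KO IP and 115 and 109 CPM in WT IP, at -0.68 ± 0.23 (adjusted p = 0.300 by edgeR). Eef1a1 had 129 and 69.5 CPM in KO IP and 156 and 137 CPM in WT IP, where the KO libraries differed from each other by more than KO library 1 did from WT. Without KO IP library 1, Eef1a1 fell by 1.08 and Eef1a2 fell by 0.94 on the log2 scale. That refit leaves a single KO library assumed to vary like the WT libraries, so its calls are not read as particular to these genes.

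The exchange-factor subunit genes Eef1b2 and Eef1d were lower in KO IP without overlap. Eef1b2 had 293 and 220 CPM in KO IP and 338 and 363 CPM in WT IP, and Eef1d had 167 and 151 CPM in KO IP and 197 and 241 CPM in WT IP. Eef1e1 rested on few reads, 3 and 16 counts in KO IP and 11 and 18 in WT IP. Eef2k went the other way from the factor its product inhibits: 74.0 and 60.2 CPM in KO IP and 42.5 and 37.4 CPM in WT IP, at 0.74 ± 0.26 (SE; unadjusted p = 0.013, adjusted p = 0.327 by edgeR), with no overlap.

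Initiation genes were spread. Eif1 had 403 and 343 CPM in KO IP and 600 and 565 CPM in WT IP, at -0.64 ± 0.22 (SE), and Eif3f, an eIF3 subunit known in muscle as a target of the ubiquitin ligase atrogin-1, 191 and 186 CPM in KO IP and 290 and 313 CPM in WT IP, at -0.67 ± 0.21 (adjusted p = 0.278 by edgeR). Both sets of libraries were clearly apart. Eif4a1 was above its WT IP values, with 79.7 and 83.4 CPM in KO IP and 63.9 and 53.0 CPM in WT IP, at 0.49 ± 0.25. Eif2s3x, at 0.78 ± 0.58, overlapped between genotypes, with 7 and 72 counts in KO IP and 10 and 24 in WT IP. The eIF2 group as a whole had a median of 0.07 with 7 of 10 positive, eIF3 -0.27, the eIF4 group -0.07 and eIF1 -0.56.

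Counted over members, KO IP and WT IP did not overlap for 23 that were lower in KO IP, beside 20.6% of all genes, and for 3 that were higher (Eef2k, Eif2d and Eif4a1), beside 20.5%. All 9 TOP members were negative, with a median of -0.46 and 8 of them apart between genotypes, while the other 42 had a median of -0.07. Summed cell-type markers did not overlap between these libraries for 5 of 10 lists, 4 higher in KO IP and 1 lower. Among single genes, 20.5% were higher and 20.6% lower without overlap, so lists apart are common with 2 libraries a group. Higher in KO IP were summed markers of fibroblasts (10881 to 11991 CPM in KO IP, 5212 to 6800 CPM in WT IP), erythroid cells (483 to 778 CPM in KO IP, 156 to 310 CPM in WT IP), Schwann cells (455 to 458 CPM in KO IP, 263 to 401 CPM in WT IP) and endothelium (1279 to 1981 CPM in KO IP, 1180 to 1212 CPM in WT IP). Lower were those of smooth muscle and pericytes, at 4768 to 5236 CPM in KO IP and 8257 to 9002 CPM in WT IP. Fast-fibre markers overlapped, at 76338 to 100061 CPM in KO IP and 97367 to 125112 CPM in WT IP. The part of these shifts in the members' values was not tested.

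IP was then compared with total RNA within each genotype, where larger differences passed the test. In KO muscle 5251 genes were called by edgeR's quasi-likelihood test, 17.7% of all genes higher in IP and 18.8% lower, and 7 members were higher and 13 lower of 53. In WT muscle 5325 genes were called, 17.6% higher and 19.4% lower, and 14 members were higher and 10 lower. As shares of the members these were 13.2% and 24.5% in KO and 26.4% and 18.9% in WT. The same 6 members were higher in both genotypes (Eif1, Eif1a, Eif3b, Eif3j1, Eif4a1 and Eif4e), 85.7% of those called in KO and 42.9% of those called in WT, where all genes gave 60.5% and 60.9%. The same 7 were lower in both (Eif2a, Eif3a, Eif3c, Eif3m, Eif4a2, Eif4b and Eif4g1), 53.8% of the KO calls and 70.0% of the WT calls, where all genes gave 71.3% and 68.9%. Cell-type markers moved with this contrast too. Of 10 lists, 5 were higher in KO IP than in KO total RNA without overlap, among them fibroblast (10881 to 11991 CPM in IP, 4125 to 7043 CPM in total RNA), erythroid (483 to 778 CPM in IP, 47.7 to 121 CPM in total RNA) and Schwann cell markers (455 to 458 CPM in IP, 80.5 to 230.1 CPM in total RNA), with endothelial and macrophage markers the others. Fast-fibre markers were lower, at 76338 to 100061 CPM in KO IP and 221531 to 288206 CPM in KO total RNA. In WT, the 5 lists higher in IP were fibroblast, Schwann cell, endothelial, islet, and smooth-muscle and pericyte markers, the last at 8257 to 9002 CPM in WT IP and 2363 to 4085 CPM in WT total RNA. Their part in the members' values was not tested.

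**Figure D4:**
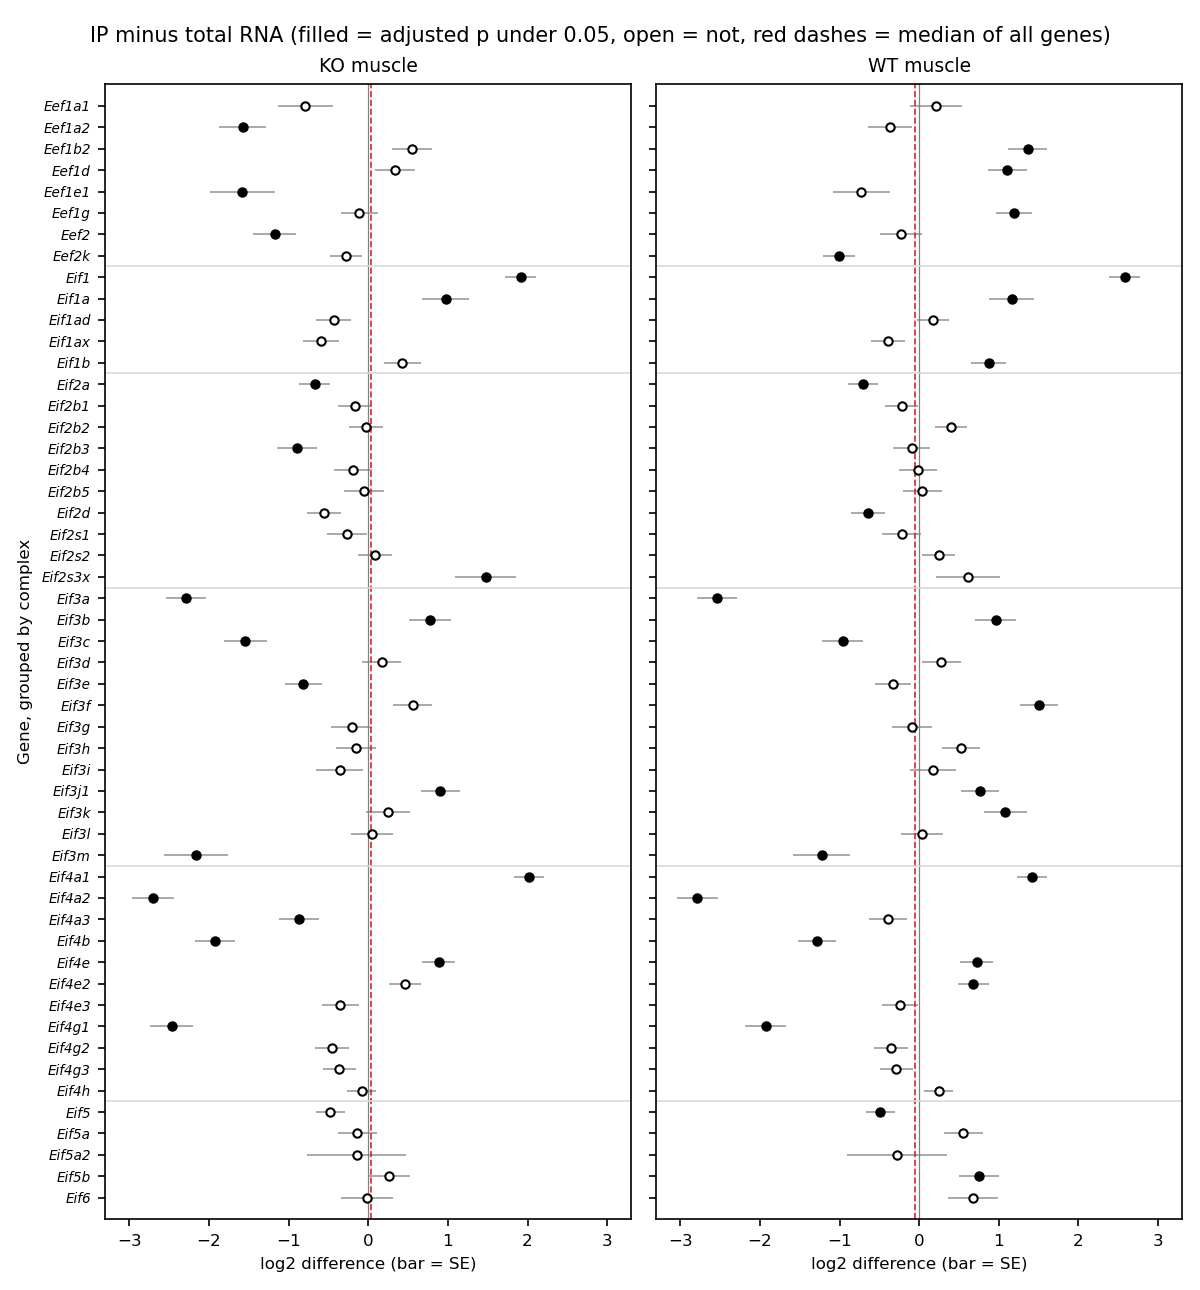
Log2 difference IP minus total RNA of each member (dot, bar = SE) in KO muscle (left panel) and WT muscle (right panel), from 1 fit over 10 libraries. Filled dots have an adjusted p under 0.05: 7 right and 13 left of zero in KO, and 14 right and 10 left in WT, with Eif4a1 and Eif1 farthest right in KO, Eif1 and Eif3f in WT, and Eif4a2, Eif4g1 and Eif3a farthest left in both. Eif3j2 and Eif4e1b are not drawn.

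Eif1 rose most in WT IP. It had 403 and 343 CPM in KO IP against 94.1, 96.5 and 106 CPM in KO total RNA, and 600 and 565 CPM in WT IP against 115, 89.98 and 86.9 CPM in WT total RNA. IP was above total RNA in every library by a wide gap, 3.77-fold in KO (log2 1.91 ± 0.19 SE, adjusted p = 2.12e-05 by edgeR) and 5.99-fold in WT (log2 2.58 ± 0.20, adjusted p = 4.97e-06). Of its windows, 31.6% are shared with 18 other genes. Eif1a rose by log2 0.97 ± 0.30 in KO and 1.16 ± 0.28 in WT, but its KO IP libraries had 9.61 and 26.8 CPM, 1 below and 1 above the KO total RNA values, whereas its paralogue Eif1ax had -0.59 ± 0.22 in KO (adjusted p = 0.0501 by edgeR) and -0.39 ± 0.22 in WT.

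The helicase paralogues moved in opposite directions. Eif4a1 had 79.7 and 83.4 CPM in KO IP against 19.5, 20.3 and 20.7 CPM in KO total RNA, and 63.9 and 53.0 CPM in WT IP against 19.9, 21.1 and 24.8 CPM in WT total RNA. Eif4a2 had 43.2 and 31.9 CPM in KO IP against 232, 258 and 225 CPM in KO total RNA, and 29.4 and 44.8 CPM in WT IP against 263, 212 and 293 CPM in WT total RNA. Thus Eif4a1 was 4.06-fold higher in KO IP and 2.66-fold higher in WT IP, and Eif4a2 6.52-fold lower in KO IP and 6.89-fold lower in WT IP (adjusted p = 1.39e-05, 8.5e-05, 1.59e-05 and 8.44e-06 by edgeR, in that order). Per kilobase, Eif4a1 was above Eif4a2 in IP, at 18.8 against 7.04 in KO IP and 13.5 against 6.95 in WT IP, while Eif4a2 was the higher in total RNA. Exons of both genes overlap snoRNA genes on their own strand, and Eif4a2 exons also overlap Rfc4 on the opposite strand, so reads there cannot be assigned with certainty.

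**Figure D5:**
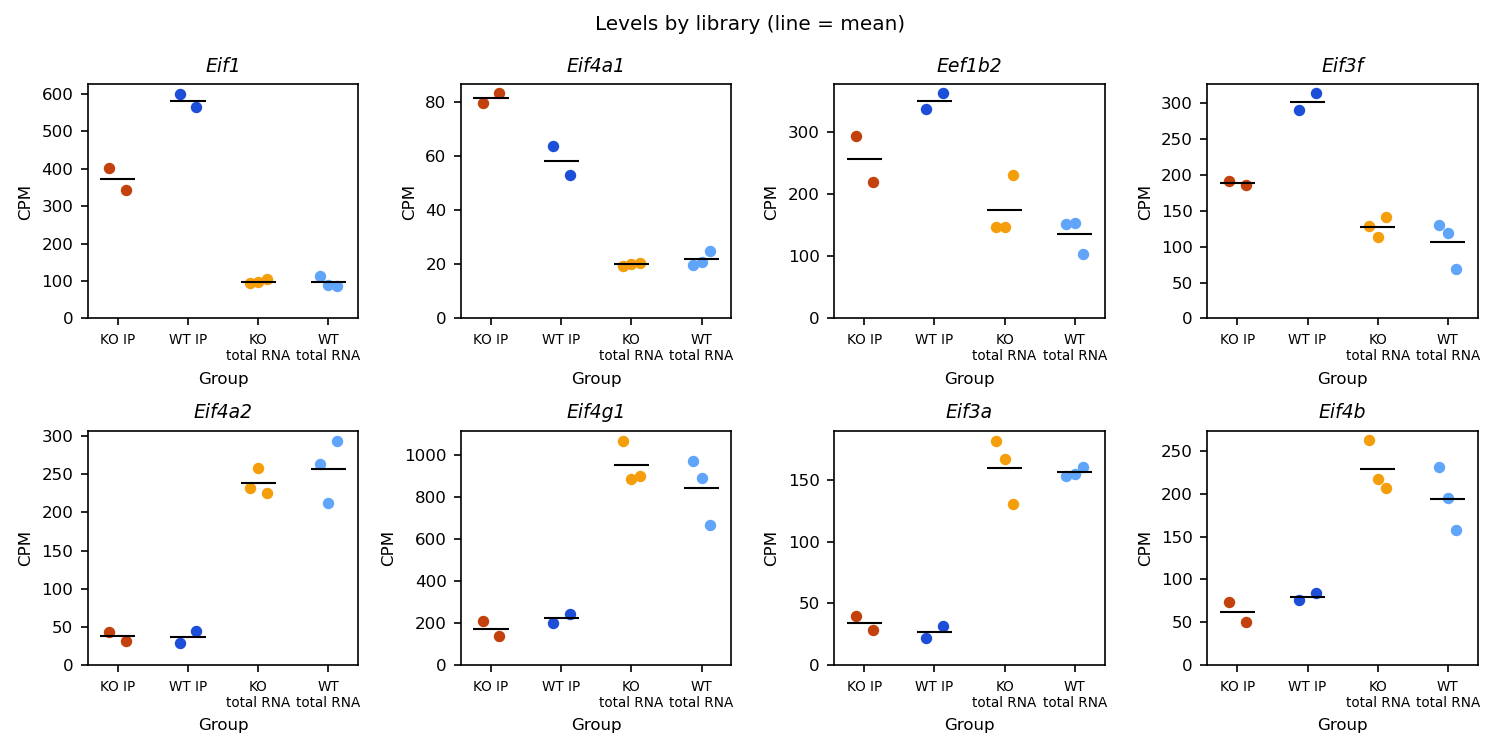
Level (CPM, vertical axis from 0) of 8 members in each library, one panel a gene, with groups in the order KO IP, WT IP, KO total RNA and WT total RNA and a line for the mean. IP points lie above all total RNA points for Eif1, Eif4a1 and Eif3f, below them for Eif4a2, Eif4g1, Eif3a and Eif4b, and Eef1b2 overlaps in KO only.

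Among the other eIF4 genes, Eif4g1 and Eif4b fell in both genotypes and Eif4e rose in both. Eif4g1 had 208 and 139 CPM in KO IP against 1067, 885 and 898 CPM in KO total RNA, and 198 and 244 CPM in WT IP against 970, 889 and 667 CPM in WT total RNA, a 5.53-fold fall in KO and 3.81-fold in WT (adjusted p = 2.84e-05 and 9.04e-05 by edgeR). Eif4b, which stimulates the helicase, fell 3.79-fold in KO and 2.43-fold in WT. The other scaffolds Eif4g2 and Eif4g3 did not pass in either genotype, at -0.46 ± 0.22 and -0.36 ± 0.21 in KO and -0.35 ± 0.22 and -0.29 ± 0.21 in WT. Eif4e rose by log2 0.88 ± 0.21 in KO IP and 0.72 ± 0.21 in WT IP, and Eif4e2, which encodes a cap-binding repressor, rose by 0.68 ± 0.20 in WT IP, with 0.46 ± 0.20 in KO IP. Eif4h, at -0.08 ± 0.18 in KO and 0.25 ± 0.18 in WT, and Eif4e3, at -0.35 ± 0.23 in KO and -0.24 ± 0.23 in WT, did not pass. Eif4a3, the helicase of the exon junction complex, fell in KO IP by log2 0.87 ± 0.25 and had -0.39 ± 0.24 in WT IP.

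Transcripts of the single eIF3 complex were recovered unequally. Eif3a, the largest subunit, had 39.4 and 28.2 CPM in KO IP against 182, 168 and 131 CPM in KO total RNA, and 21.9 and 31.9 CPM in WT IP against 154, 155 and 161 CPM in WT total RNA. This was a 4.90-fold fall in KO and 5.80-fold in WT (adjusted p = 2.9e-05 and 1.3e-05 by edgeR). Eif3f had 191 and 186 CPM in KO IP against 129, 114 and 141 CPM in KO total RNA, and 290 and 313 CPM in WT IP against 130, 118 and 69.2 CPM in WT total RNA. IP libraries were above total RNA in both genotypes, and the test passed in WT at 2.85-fold (adjusted p = 0.000302 by edgeR) but not in KO at 1.47-fold (adjusted p = 0.0861). Eif3b rose in both (log2 0.77 ± 0.26 in KO, 0.96 ± 0.26 in WT) and so did Eif3j1 (0.90 ± 0.25 in KO, 0.77 ± 0.24 in WT). Eif3c fell in both (-1.55 ± 0.27 in KO, -0.96 ± 0.26 in WT), as did Eif3m (-2.17 ± 0.40 in KO, -1.22 ± 0.36 in WT). Eif3k had 0.25 ± 0.28 in KO IP and rose by 1.08 ± 0.27 in WT IP, and Eif3e fell by 0.82 ± 0.23 in KO IP, with -0.33 ± 0.22 in WT IP. Eif3d, Eif3g, Eif3h, Eif3i and Eif3l passed in neither genotype.

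Elongation genes had 0 higher and 3 lower of 8 in KO, beside 17.7% and 18.8% of all genes. In WT they had 3 higher and 1 lower, beside 17.6% and 19.4%. In WT, the exchange-factor genes rose, with Eef1b2 at 338 and 363 CPM in IP against 152, 153 and 104 CPM in total RNA (log2 1.36 ± 0.25, adjusted p = 0.000804 by edgeR), Eef1g at 1.19 ± 0.22 (adjusted p = 0.00105) and Eef1d at 1.11 ± 0.24 (adjusted p = 0.00292). In KO none of these passed, at 0.54 ± 0.25 for Eef1b2, 0.33 ± 0.25 for Eef1d and -0.11 ± 0.23 for Eef1g. In KO, Eef1a2 fell 2.98-fold and Eef2 2.26-fold in IP (adjusted p = 0.000959 and 0.00417 by edgeR), while in WT they had log2 differences of -0.36 ± 0.28 and -0.23 ± 0.26. Eef1a1 passed in neither, at -0.79 ± 0.35 in KO and 0.21 ± 0.33 in WT. Eef1e1 fell in KO IP (-1.58 ± 0.41, with -0.73 ± 0.36 in WT IP) and Eef2k in WT IP (-1.005 ± 0.21, with -0.28 ± 0.20 in KO IP).

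The eIF2 group had 1 higher and 2 lower of 10 in KO, beside 17.7% and 18.8% of all genes. In WT it had 0 higher and 2 lower, beside 17.6% and 19.4%. Eif2a, an alternative carrier of initiator tRNA, fell in KO IP and WT IP (-0.67 ± 0.20 in KO, -0.71 ± 0.19 in WT), Eif2d in WT IP (-0.64 ± 0.22) and the eIF2B subunit gene Eif2b3 in KO IP (-0.89 ± 0.25). Eif2s3x rose in KO IP, at 6.73 and 14.9 CPM against 4.93, 4.15 and 3.76 CPM in total RNA, but 36.2% of its windows are shared and the call was lost without KO IP library 2 (log2 0.64). The alpha and beta subunit genes Eif2s1 and Eif2s2 had -0.27 ± 0.25 and 0.08 ± 0.21 in KO and -0.22 ± 0.25 and 0.24 ± 0.20 in WT. Among later factors, Eif5b rose in WT IP (0.75 ± 0.25) and Eif5 fell there (-0.49 ± 0.18), while Eif5a and Eif6 passed in neither genotype.

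The counts of members called depended on single libraries and on the scaling. Without KO IP library 2, which leaves a single KO IP library, calls in KO were lost in both directions. Among those lost were Eef1e1 (log2 -1.75), Eef2 (-1.13), Eif2s3x (0.64) and Eif3j1 (0.83). Further members lost their call in that refit and are not named here. In WT, 8 members were higher without WT IP library 1, and 9 were higher without WT IP library 2, when Eef1d was no longer called. Scaled by library size alone, the median of all genes in KO moved by 0.43 to 0.47, and 15 members were higher and 9 lower. In WT the same scaling gave 17 members higher and 8 lower.

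Recovery was also set against exon length. Across the 52 members other than Eif3j2, Spearman's rho between exon length and the log2 difference IP minus total RNA was -0.12 in KO and -0.29 in WT, and across 14331 genes it was -0.16 in KO and -0.24 in WT. The 20 members under 3000 bases of exon had a median of -0.14 in KO, with 5 positive, and 0.31 in WT, with 13 positive, beside 0.24 in KO and 0.33 in WT for all genes of that length. The 15 members of at least 6000 bases had -0.46 in KO and -0.33 in WT, beside -0.21 and -0.37 for all such genes. In KO the median of the short members was thus below that of short genes in general. Its side of zero depends on the scaling, since the median of all members in KO was 0.26 with library size alone. Without KO total RNA library 3 that median was -0.03. For KO minus WT, rho across members without Eif3j2 was -0.35 in total RNA and 0.35 in IP. Across all genes it was -0.13 and 0.17. The 20 members under 3000 bases had medians of 0.22 in total RNA, with 20 positive, and -0.38 in IP, with 3 positive. Medians of all genes of that length were 0.04 and -0.12. The part of exon length in the members' differences was not tested. Genes are not independent replicates and share their libraries, so these values are a description.

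The genotype difference in IP over total RNA was tested as an interaction, KO minus WT, in the fit of all 10 libraries. It called 1 gene of 14399 (0.00694%) and 0 of 53 members by edgeR's quasi-likelihood test, and DESeq2 called 17 genes and 0 members. At an unadjusted p under 0.05, 1703 genes (11.8%) were counted, with 2 members higher, beside 6.45% of all genes, and 9 lower, beside 5.38%. The smallest p among members was that of Eef1g, at -1.30 ± 0.33 (SE; unadjusted p = 0.0014, adjusted p = 0.342 by edgeR), followed by Eef1a2 at -1.21 ± 0.39 (adjusted p = 0.342). Eif3f had -0.95 ± 0.35, Eef2 -0.94 ± 0.37, Eef1b2 -0.82 ± 0.36, Eef1d -0.77 ± 0.35 and Eif1 -0.67 ± 0.28, while Eef2k had 0.72 ± 0.28 and Eif4a1 0.61 ± 0.27. Thus the different calls of these genes in KO and in WT were not shown to differ between genotypes. All 9 TOP members were negative, with a median of -0.82, and 40 of all 53 members, against 48.7% of all genes. With library size alone 26 members were negative, as the median of all genes moved to 0.40, and the members stayed 0.35 below it. This contrast uses the same libraries as the comparisons above and is not separate evidence.

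Other genes of the translation machinery were taken from 8 lists, whose calls in IP over total RNA stand beside 17.7% of all genes higher and 18.8% lower in KO, and 17.6% higher and 19.4% lower in WT. In total RNA and in IP, KO against WT, edgeR called 0 of 88 and 0 of 84 genes tested, and 0 of 89 for the interaction. At an unadjusted p under 0.05 there were 3, 9 and 10 of them, beside 4.32%, 10.5% and 11.8% of all genes. DESeq2 called 0 of them in each. In IP over total RNA, targets of the integrated stress response, which is triggered by phosphorylation of eIF2, included 4 higher of 11 in KO and 5 higher of 11 in WT, with 0 lower in either. Atf4, the transcription factor of that response, averaged 355 CPM in KO IP against 150 CPM in KO total RNA and 426 CPM in WT IP against 154 CPM in WT total RNA (log2 1.24 ± 0.20 in KO and 1.47 ± 0.20 in WT). Ddit3, a second factor of the response, rose by 2.09 ± 0.21 in KO IP and 1.69 ± 0.20 in WT IP. Cytosolic aminoacyl-tRNA synthetase genes went mostly the other way, with 1 higher and 13 lower of 22 in KO and 2 higher and 11 lower in WT, and the synthetase scaffold gene Aimp2 had -2.85 ± 0.33 in KO and -2.21 ± 0.32 in WT.

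Mitochondrial translation factors had 1 higher and 5 lower of 10 in each genotype, led by the elongation factor gene Gfm1 (-2.23 ± 0.28 in KO, -2.07 ± 0.27 in WT). Cap-binding regulators had 1 higher and 3 lower of 9 in KO and 2 higher and 4 lower in WT, among them Eif4ebp2, which encodes an inhibitor of eIF4E, at -3.70 ± 0.48 in KO and -3.88 ± 0.48 in WT. Enzymes that modify elongation factors had 2 higher and 3 lower of 13 in KO and 3 higher and 1 lower in WT, with the diphthamide gene Dph3, needed for the modified residue of eEF2, at 1.71 ± 0.28 in KO and 2.12 ± 0.28 in WT. The remaining 3 lists had 1 or 2 calls in each direction, near the share of all genes at their size. Kinases and phosphatases of eIF2 alpha had 1 higher and 2 lower of 7 in KO and 1 and 1 in WT. Poly(A)-binding and re-initiation factors had 1 and 1 of 8 in both, and termination, recycling and rescue factors 1 and 2 of 9 in KO and 1 and 1 in WT. Between KO IP and WT IP, 2 of the 84 listed genes tested were higher (Cars and Gspt1) and 7 lower at an unadjusted p under 0.05. Of all genes, 5.68% were higher and 4.83% lower at that level. Cars, the cysteinyl-tRNA synthetase gene, had 62.4 ± 6.92 CPM in KO IP and 30.1 ± 7.35 CPM in WT IP (SD, n = 2 each), at 1.04 ± 0.28 (SE; adjusted p = 0.239 by edgeR). Gspt1, a release factor gene, had a log2 difference of 0.69 ± 0.32. The smallest p was that of Tpt1, from the list of termination, recycling and rescue factors. It had 39.3 ± 15.1 CPM in KO IP and 83.5 ± 1.49 CPM in WT IP (SD, n = 2 each), at -1.16 ± 0.29 (SE; adjusted p = 0.201 by edgeR).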

How the data were processed

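The authors deposited 1 table of raw read counts per Ensembl gene for each of 10 libraries. Reads were aligned with STAR to mm10 (GRCm38) and counted with HTSeq, per the submitters' processing notes. Versions, strand setting and annotation are not given in the sources used here. Entries for unassigned reads were left out of library sizes. No 2 libraries held identical values.

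Counts were tested with edgeR 4.0.16 (filterByExpr, TMM factors, glmQLFit and glmQLFTest, two-sided, Benjamini-Hochberg adjustment over all genes at 0.05) in R 4.3.3. KO was compared with WT within each kind of library, and IP with total RNA in 1 fit over 10 libraries. DESeq2 1.42.0 was an alternative. SE is the log2 difference divided by the square root of F. CPM levels use TMM factors over 10 libraries. Exon lengths come from GENCODE M21 (GRCm38). Shared windows are 50-base windows of the longest coding transcript found exactly in another gene's transcripts. The steps were tested on simulated data.

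Members and gene lists were chosen with earlier results of these data known. Values per library were given for the elongation genes and, in each comparison, for some of the 5 members with smallest p in each direction. Others of those were given by mean or log2 value alone. Up to 3 genes of each other list were named. Further members given by fold or log2 value were named after their values were seen. The first 20 bases on either side of a start and the run length of 8 were set by hand.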

Additional observations from a re-analysis of the deposited data

How the results depend on the processing

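Each comparison was refitted with library size alone, with DESeq2's size factors, with DESeq2, without a filter on low counts, with the replicate number as a block, and without each library in turn. The same-numbered libraries did not vary together in total RNA (correlations of 0.12, -0.14 and -0.34) or between KO IP and WT IP (-0.07). Between IP and total RNA, libraries numbered 1 and 2 correlated with their own number at 0.19 in KO and 0.16 in WT, and with the other number at -0.19 and -0.16. These 2 pairs a genotype are too few to show pairing and the labels state none, so the numbers were not taken as pairs. With the replicate block, genes called were 28 in KO against WT IP and 93 for the interaction, members in IP over total RNA were 12 higher and 16 lower in KO and 14 higher and 13 lower in WT, and the members' median minus that of all genes was -0.064 in KO IP over total RNA, -0.16 in WT IP over total RNA and -0.19 for the interaction.

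Genes called in KO against WT total RNA were 5 with DESeq2 and 64 without the filter. In KO against WT IP they were 1 with library size alone, 45 with DESeq2 and 103 without the filter, and for the interaction 0, 17 and 263. Library size alone gave 15 members higher in KO IP over total RNA. Without the filter, 1 member, Eef1g, was lower for the interaction (-1.29), and the median minus that of all genes was -0.12 in KO and 0.38 in WT IP over total RNA. Leaving out the KO total RNA library with islet markers and the WT library with adipocyte markers together left 0 genes called for the interaction.

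Without single libraries, genes called ranged over 0 to 0 in total RNA, 13 to 146 in IP, 2148 to 4670 in KO and 3765 to 4883 in WT IP over total RNA, and 0 to 1 for the interaction. The members' median minus that of all genes ranged over 0.04 to 0.23 in total RNA, -0.23 to -0.062 in IP, -0.34 to -0.065 in KO and -0.17 to 0.23 in WT IP over total RNA, and -0.42 to -0.24 for the interaction. Members called higher were 0 to 0 in total RNA, IP and the interaction, 3 to 9 in KO and 8 to 14 in WT, and those lower 0 to 0 in total RNA and the interaction, 0 to 2 in IP, 8 to 13 in KO and 7 to 12 in WT. The Eef1a2 share difference ranged over 0.10 to 1.02 points for KO minus WT total RNA, -6.25 to -3.08 for IP minus total in KO and -5.18 to -2.19 in WT.

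Single members that turned were close to zero, and the cause was not tested. In KO minus WT total RNA, Eef1e1 was 0.20 without WT library 1, 0.0026 without KO library 1 and 0.14 without KO library 2, in a range over single libraries of -0.18 to 0.20. Eef2k was -0.22 with library size alone, -0.0066 with the block, -0.15 without both of those libraries, -0.017 without WT library 2 and -0.11 without KO library 1, in a range over single libraries of -0.11 to 0.11. Eif3j1 was 0.012 without KO library 3, in a range of -0.33 to 0.012. In KO IP over total RNA, Eef1g was 0.11 with the block and 0.10 without KO library 3, in a range of -0.21 to 0.10, and in WT, Eef1a1 was -0.081 with the block and -0.088 without WT library 3, in a range of -0.088 to 0.41. Of the other single-member values, 840 kept their side of the threshold, 14 passed it anew and 5 no longer did. These counts cover only the elongation genes and, in each comparison, the 5 members with smallest p in each direction. They include refits that left a single IP library in a group. Calls lost by the remaining members are not among them. The depth of KO IP library 1, 917462 counts, limits what the IP comparisons can show, and counting error alone does not cover duplicate reads.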
